A study of Mus musculus with 6 samples.

Results

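Solute carriers are the Slc and Slco genes, and 182 of the 6270 Argonaute (Ago) footprints in the table of 3′ UTR occupancy (2.90%) lay on them. A footprint is a short stretch of mRNA that was recovered cross-linked to Ago. It was counted as a solute carrier footprint when it overlapped, on the gene's own strand in GENCODE vM1 (mm9), a gene whose symbol starts with Slc and a digit or with Slco. The 182 footprints fell on 44 genes, which is 12.0% of the 368 protein-coding genes annotated under such symbols. In the table as a whole 2223 genes held a footprint, beside 22238 annotated protein-coding symbols. Each of the 182 overlapped an annotated 3′ UTR of its solute carrier gene by at least 1 base. The centre of 178 lay in the longest such 3′ UTR. The centres of the first footprints of Slc4a7, Slc6a6, Slc15a3 and Slc20a1 did not. All 22 footprints of Slc5a3 also lay inside the gene body of Mrps6 on the same strand, because the 2 annotated genes overlap there, and 1 footprint of Slc15a3 overlapped an exon of Tmem132a on the opposite strand.

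The study compared Ago binding in bone-marrow-derived macrophages of wild-type (WT) and Apobec1-/- (KO) mice by HITS-CLIP, which sequences the RNA that is pulled down with a protein after cross-linking. There were 3 libraries per genotype, from 3 littermate pairs of C57BL/6 mice aged 6 to 12 weeks. Marrow cells of both genotypes were matured for 7 days with M-CSF at 20 ng/mL, in part replaced by medium with 40 ng/mL, and Ago was recovered with the antibody 2A8. APOBEC1 deaminates cytidine to uridine in mRNA, many of its known sites lie in 3′ UTRs, and the part of the gene removed in the KO mice is not named in the labels. Occupancy is the authors' ratio of footprint signal to the RNA-Seq expression of the transcript, given as 1 combined value per genotype. There is therefore no SD, p-value or test of KO against WT, and the only replicate information is the number of libraries of each genotype, from 0 to 3, that held a footprint.

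Solute carriers are membrane proteins that move amino acids, sugars, nucleotides, vitamins, inorganic ions and metals across the plasma membrane and the membranes of organelles, mostly driven by ion or substrate gradients. In macrophages they feed glycolysis and amino acid use, set the ion content of the phagosome and lysosome, and keep cell volume under osmotic load. Ago proteins carry a miRNA whose seed, bases 2 to 8 from its 5′ end, pairs with the target mRNA, most often in the 3′ UTR, and lowers its stability or translation.

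Matches to the seeds of 23 miRNA families were searched on the transcript strand of every footprint, with 34 mature sequences taken from the RefSeq miRNA table (GRCm38.p6). At least 1 match was held by 36 of the 182 solute carrier footprints (19.8%, 95% Wilson interval 14.6 to 26.2%, which covers counting over footprints only), against 18.4% of all footprints. These 36 lay on 21 genes, and the other 23 genes held none. The mature miRNAs below are the ones whose sites are printed after them, with the seed in capitals, and miR-27a and miR-27b share a seed, as do miR-25 and miR-92a.
mmu-miR-27a-3p: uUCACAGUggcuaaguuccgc
mmu-miR-27b-3p: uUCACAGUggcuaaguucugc
mmu-miR-146a-5p: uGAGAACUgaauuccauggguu
mmu-miR-25-3p: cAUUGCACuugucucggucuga
mmu-miR-92a-3p: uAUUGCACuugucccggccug
mmu-miR-16-5p: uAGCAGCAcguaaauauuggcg
mmu-miR-30a-5p: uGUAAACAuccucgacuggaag

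The sites below are 22-nt windows of mm9, written 5′ to 3′ on the transcript strand with the seed match in capitals. The first 3 are the matches in footprints held by all 6 libraries, and the others are 4 further miR-27 sites (that of Slc25a46 is not printed), the strongest miR-146 site of Slc5a3, and the 2 sites of Slc4a7.
Slc23a2, miR-146, chr2:131879823-131879844, minus strand: ggcattccatccctAGTTCTCa
Slc38a2, miR-25/92, chr15:96519648-96519669, minus strand: tgaggtaccaaataGTGCAATt
Slc6a6, miR-27, chr6:91708565-91708586, plus strand: tccaatccctaacaACTGTGAc
Slc5a3, miR-27, chr16:92086479-92086500, plus strand: aatttcctaatttcACTGTGAg
Slc25a24, miR-27, chr3:108970150-108970171, plus strand: catcaatgaacaaaACTGTGAc
Slc38a7, miR-27, chr8:98360905-98360926, minus strand: tctttgggctccctACTGTGAc
Slco4a1, miR-27, chr2:180209061-180209082, plus strand: tcgcactgccccacACTGTGAc
Slc5a3, miR-146, chr16:92082659-92082680, plus strand: tcagtggagttatgAGTTCTCt
Slc4a7, miR-15/16, chr14:15630397-15630418, plus strand: ccaaagttcccattTGCTGCTa
Slc4a7, miR-30, chr14:15631466-15631487, plus strand: tatttataaagattTGTTTACt

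The site that recurred most was that of miR-27, in 6 solute carrier footprints on 6 genes (3.30%, against 1.59% of all footprints): Slc5a3, Slc6a6, Slc25a24, Slc25a46, Slc38a7 and Slco4a1. The miR-146 match stood in 4 footprints on Slc23a2, Slc5a3 and Slc6a6 (2.198%, all footprints 0.574%), and the miR-19 match in 4 others, 3 of them on Slc12a7, Slc31a2 and Slc35a5 (2.198%, all 1.00%). In contrast, the miR-15/16 match stood in 1 footprint, on Slc4a7 (0.549%, all 1.99%). These counts are small, and no difference from the other footprints was tested. The second footprint of Slc35a5 held matches of 3 families, miR-30, miR-21 and miR-19. Of the 43 matches, 16 lay within 10 nt of the footprint's centre and 31 within 23 nt, and 15 were followed by an A opposite base 1 of the miRNA. The AU-rich pentamer ATTTA, searched on the transcript strand, was in 22 solute carrier footprints (12.1%, all 11.9%), and the Pumilio element TGTANATA in 9 (4.95%, all 3.81%).

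Apobec1 itself held 3 footprints, with 0.0250 to 0.174 in KO and 0.0462 to 0.181 in WT, each in at least 2 KO libraries. Since the removed part of the gene is not named, and occupancy is divided by expression, these values do not check the genotype. Markers of the cell type were looked up in the same table. Footprints were found on 7 of the 10 macrophage markers, among them Csf1r, Itgam and Lyz2, and on 0 of the 4 T-cell, 3 B-cell, 3 neutrophil, 3 dendritic cell and 3 fibroblast markers. Most genes held no footprint (2223 genes held one, beside 22238 annotated protein-coding symbols), and a footprint is not a measure of expression. The absence of these markers therefore says little about other cell types. Of the KO values above 0, 34.1% of those on solute carriers were shared exactly with another footprint (all footprints 33.3%), and of the WT values 18.1% (all 18.6%). One KO value, 0.872, stood for a footprint of Slc5a3 and for a footprint of Slc38a7. The sources used here do not say how equal values came about.

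Solute carrier genes held 4.14 footprints each on average, against 2.77 over all genes, and 14 of the 44 held a single one. At least 2 footprints were held by 30 of the 44 genes (68.2%, all genes 53.9%), and at least 3 by 19 (all genes 34.2%). Slc5a3 with 22 and Slc43a2 with 19 footprints ranked 2 and 3 among all 2223 genes by number, and Slc16a10 and Slc23a2 followed with 13 each. The 6 genes with the most footprints, counting 1 of the 2 tied at 8, held 85 of the 182 (46.7%). The annotated 3′ UTRs of the solute carrier genes were also longer, with a median over genes of 2536 nt against 1813 nt for all genes, and the median density over genes was 1.32 footprints per kb against 1.29. Footprints lay along the whole 3′ UTR, with 33, 39, 45, 30 and 31 in 5 equal parts of it from the stop codon (178 could be placed on the longest 3′ UTR). Their length had a median of 70.5 nt (63 to 206 nt) and their G+C content a median of 46.03% (23.5 to 66.7%, all footprints 42.9%).

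The 182 footprints had a median occupancy of 0.371 in KO, with quartiles of 0.180 and 0.855, and of 0.468 in WT, with quartiles of 0.204 and 0.958. Over all footprints the medians were 0.377 and 0.406. The 182 occupancies summed to 175.1 for KO and 166.8 for WT, so that the sum was higher in KO although more footprints were lower. KO occupancy was higher than WT at 79 footprints (43.4%, all footprints 48.7%) and lower at 103. The median log2 ratio of KO over WT, computed with a pseudocount of 0.00161, was -0.28 against -0.04 over all footprints. It was -0.15 without the 22 footprints of Slc5a3. At least a 2-fold higher value in KO was seen at 36 footprints (19.8%) against a background of 18.9% of all footprints, and at least a 2-fold lower value at 47 (25.8%) against 24.2%. KO was listed at 0 for 9 footprints (4.95%, background 4.63%), 8 of them on Slc5a3, Slc25a36, Slc25a46, Slc35b4, Slc38a2 and Slc38a7. These shares were near the background. In bulk cultures such as these, a difference in the share of cells and one in the amount per cell cannot be told apart.

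When the footprints of a gene were summed, 23 of the 44 genes were higher in KO (background 47.8% of all genes) and 21 lower. The median of the gene log2 ratios was 0.04 against -0.04 for all genes, opposite in sign to the median over footprints. That sign was not stable, since the gene median was -0.18 when the strongest footprint stood for each gene. The 5 genes at least 2-fold higher (background 11.7%) were Slc11a1, Slc12a7, Slc27a1, Slc30a9 and Slc41a2, each with 1 or 2 footprints. The 5 genes at least 2-fold lower (background 17.9%) were Slco4a1, Slc25a3, Slc25a11, Slc35b4 and Slc25a36, the last of which was listed at 0 in KO. All but Slco4a1 had 1 or 2 footprints. Those of Slc25a3, Slc25a11 and Slc25a36 were in no KO library, and those of Slc35b4 in at most 1. The log2 ratio of Slc35b4 was -1.55, and -0.56 without its footprint listed at 0 in KO.

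**Figure D1:**
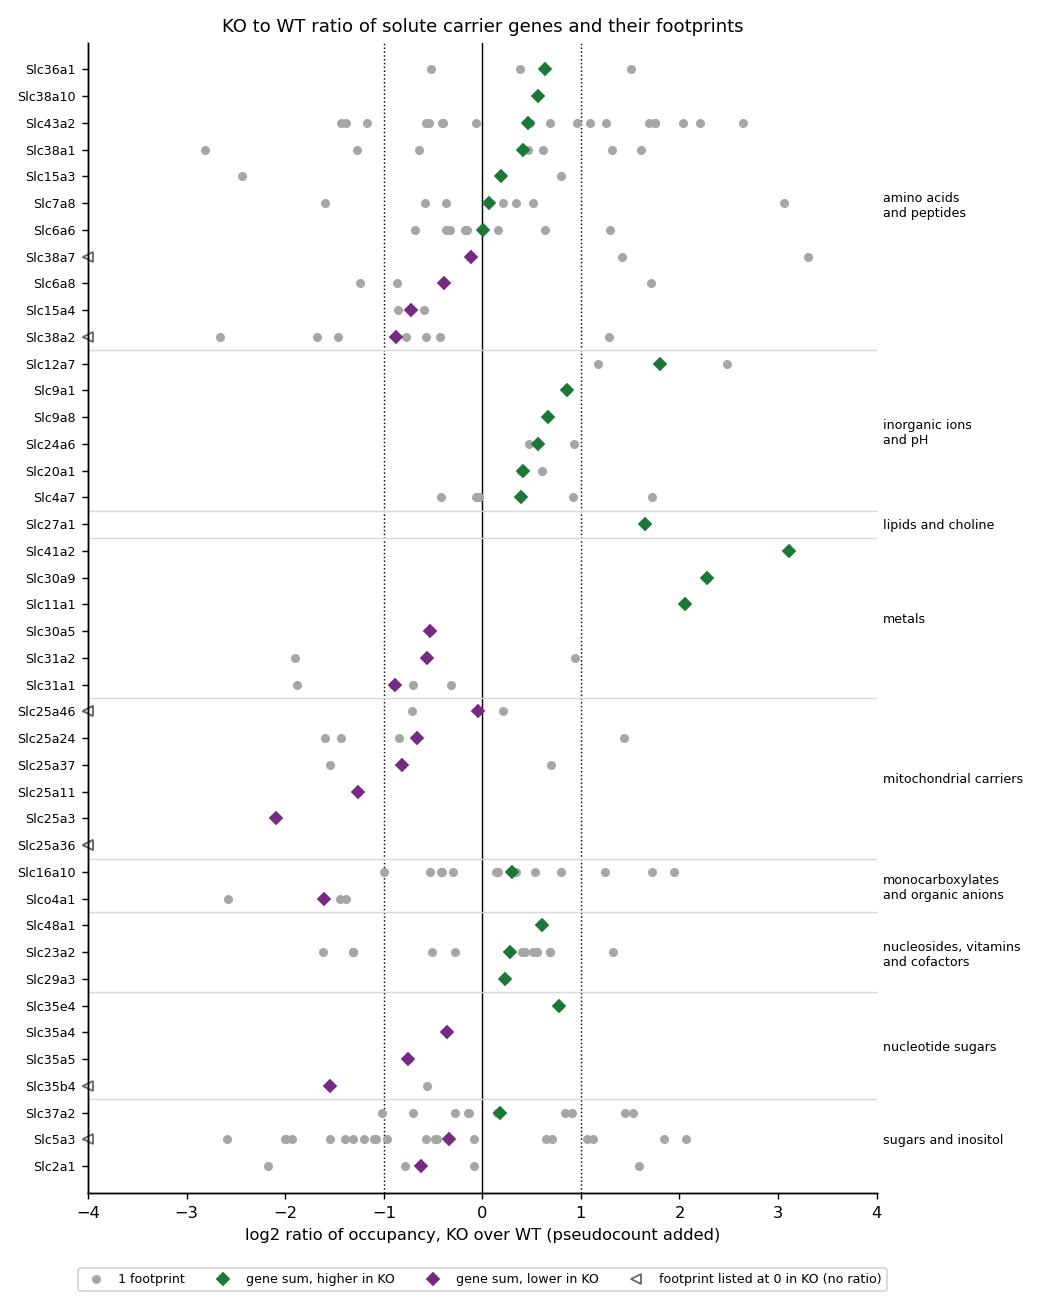
Log2 ratio of occupancy, KO over WT, for 42 of the 44 solute carrier genes, ordered within transport groups; diamonds are gene sums (green higher, purple lower in KO), grey points are single footprints, open triangles mark footprints listed at 0 in KO, and dotted lines mark 2-fold. All mitochondrial carriers with a diamond lie left of 0, and Slc25a36, listed at 0 in KO, has triangles only. The diamonds of the 6 genes of ion and pH transport drawn here, of 8 in that group, lie right of 0. Footprints of 1 gene often lie on both sides.

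Footprints held by all 6 libraries have the most replicate support. There were 18 of them on 13 solute carrier genes (9.89%, background 5.89%). Of these, 8 were higher and 10 lower in KO (background 56.9% higher), with a median log2 ratio of -0.22 against 0.13 for all such footprints. Just 1 of the 18 differed by 2-fold, the third footprint of Slco4a1 (background 11.1% in either direction). At least 2 libraries of both genotypes held 69 footprints (37.9%, background 35.0%), and of these 40 were higher and 29 lower (background 68.5% higher), 17 at least 2-fold higher (background 26.2%) and 5 at least 2-fold lower (background 5.01%). The median log2 ratio of those 69 was 0.43, beside 0.42 over all such footprints, and so opposite in sign to that of the 182.

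**Figure D2:**
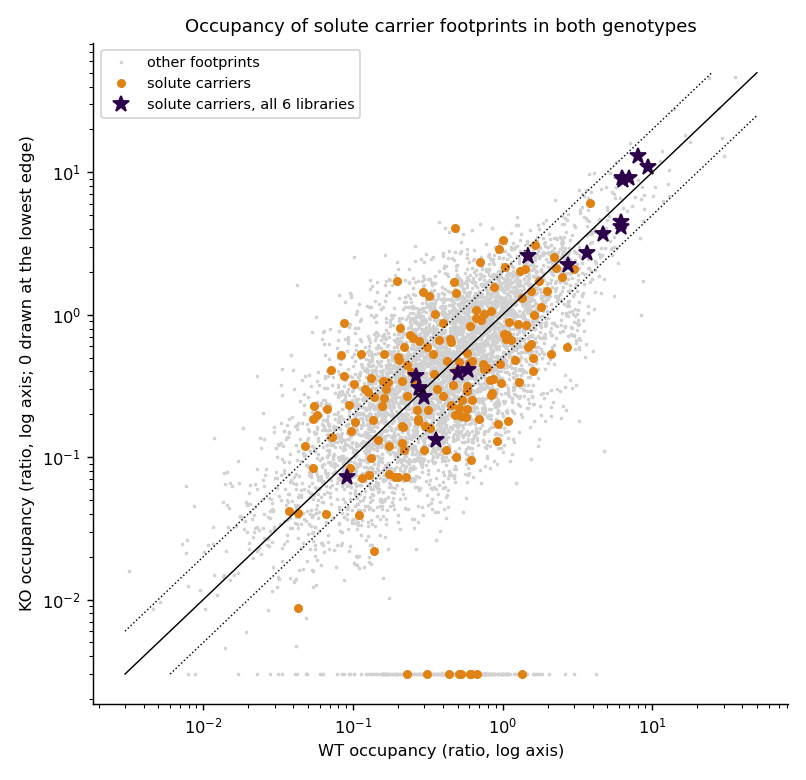
WT occupancy (x) against KO occupancy (y) of each footprint, both ratios on log axes; orange points are solute carrier footprints, stars those held by all 6 libraries, and grey points all other footprints, with the line of equality and dotted lines at 2-fold. The 11 strongest stars, all above 1 in both genotypes, lie between the dotted lines, and 9 orange points listed at 0 in KO sit on the lowest edge.

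The strongest solute carrier footprint was the tenth of Slc23a2, which encodes a sodium-coupled vitamin C transporter, at chr2:131879778-131879843 on the minus strand. Its occupancy was 12.99 in KO and 8.05 in WT, in all 6 libraries, and it held the miR-146 site printed above. It took 72.3% of the gene's summed occupancy in KO and 54.5% in WT. The other 12 footprints of Slc23a2 lay between 0.0726 and 1.006 in KO and between 0.1199 and 1.549 in WT. The gene sum was 17.96 in KO and 14.76 in WT (log2 ratio 0.28), with 7 footprints higher and 6 lower.

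Single strong footprints of this kind recurred. Slc20a1, a sodium-phosphate cotransporter, had 9.14 in KO and 6.95 in WT at chr2:129036538-129036602. Slc16a10, which carries aromatic amino acids, had 9.15 in KO and 6.31 in WT at chr10:39754198-39754262. Slc38a1, a sodium-coupled neutral amino acid transporter, had 8.86 in KO and 6.41 in WT at chr15:96403817-96403879. These 3 were higher in KO and, like that of Slc23a2, were held by all 6 libraries. The second footprint of Slc25a46, whose product lies in the outer mitochondrial membrane and acts in mitochondrial dynamics, had 10.88 in KO and 9.42 in WT in all 6 libraries. Slc9a8, a sodium-proton exchanger of endomembranes, had its 1 footprint at chr2:167299908-167299970 with 6.11 in KO and 3.84 in WT, in 2 KO and 3 WT libraries. Lower values in KO were seen at the strong footprints of Slc5a3 (4.48 in KO, 6.19 in WT), Slc7a8 (4.12 and 6.15, then 3.66 and 4.72) and Slc38a2 (2.70 and 3.64). None of these 10 strongest footprints differed by 2-fold, and the same 10 were strongest after division by footprint length.

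The strongest footprint of a gene was the same one in both genotypes in 12 of the 19 solute carrier genes with 3 or more footprints, against 49.5% of the 761 such genes in the table. It was the same in all 9 genes with 7 or more footprints, against 48.2% of 195 genes. In 5 of the 19 genes the same footprint held over 50% of the summed occupancy of both genotypes. The share was 91.6% in KO and 76.9% in WT for Slc25a46, 64.3% and 61.9% for Slc38a1, and 71.2% and 52.2% for Slc38a2. It was far smaller where footprints were many, at 23.2% and 25.4% for Slc5a3 and 13.2% and 27.1% for Slc43a2.

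**Figure D3:**
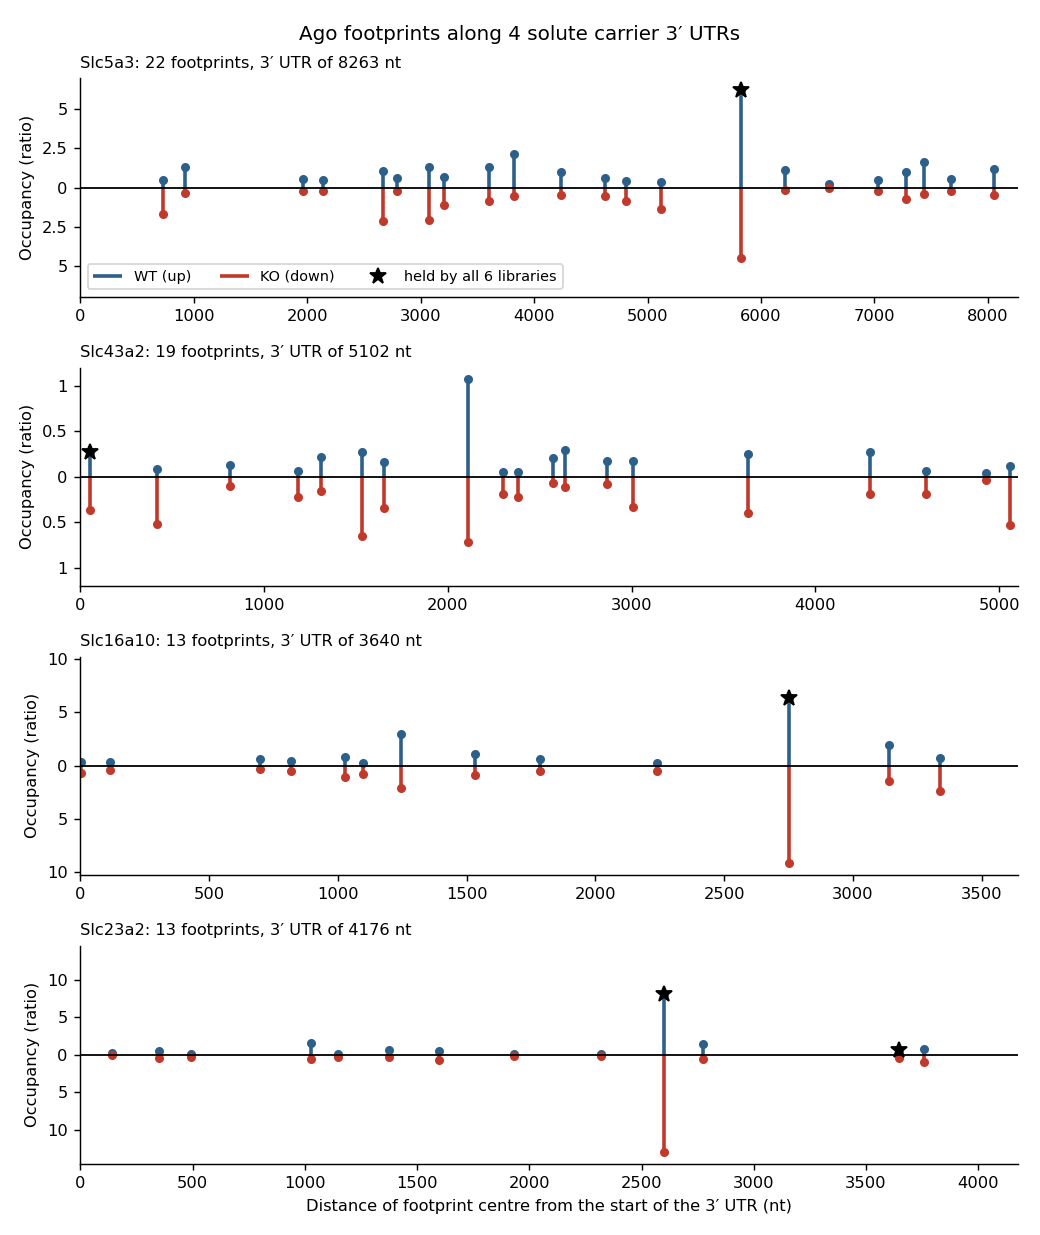
Occupancy of each footprint along the annotated 3′ UTR of Slc5a3, Slc43a2, Slc16a10 and Slc23a2, with WT drawn upwards in blue and KO downwards in red against the distance in nt of the footprint's centre from the start of the 3′ UTR; stars mark footprints held by all 6 libraries. Slc16a10, Slc23a2 and Slc5a3 each have the same highest peak in both genotypes, at 2751, 2598 and 5820 nt, and the footprints of Slc43a2 are all below 1.1.

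Sugar and inositol carriers held 36 footprints on 3 genes, of which 12 were higher and 24 lower in KO, with a median log2 ratio of -0.47. Most of them belonged to Slc5a3, the sodium/myo-inositol cotransporter by which cells take up inositol as an osmolyte. Its 22 footprints spread over a 3′ UTR of 8263 nt, from 732 to 8056 nt after the stop codon, and whether Slc5a3 or the overlapping Mrps6 gave the expression in their divisor is not stated. KO occupancy ranged from 0 to 4.48 (median 0.506) and WT occupancy from 0.229 to 6.19 (median 0.813). Thus 6 footprints were higher in KO and 16 lower, 4 and 11 of them by at least 2-fold. The gene sum was 19.30 in KO and 24.36 in WT (log2 ratio -0.34), while the 5 footprints that at least 2 libraries of each genotype held gave 0.12.

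Neighbouring footprints of Slc5a3 differed in direction. The first, at chr16:92080146-92080228, had 1.70 in KO and 0.473 in WT (2 KO, 1 WT libraries), and the second, 927 nt after the stop codon, had 0.334 in KO and 1.28 in WT (1 and 2 libraries). The fourteenth, at chr16:92084546-92084609, had 1.35 in KO and 0.320 in WT in 2 libraries of each genotype. The sixteenth, at chr16:92085567-92085757, had 0.179 in KO and 1.08 in WT and was held by no KO library. The footprint with the miR-27 site, the eighteenth, had 0.220 in KO and 0.508 in WT and was also held by no KO library. Among the 7 footprints in at least 2 KO libraries 5 were higher in KO, and among the 15 in fewer 14 were lower.

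Slc37a2, a sugar phosphate exchanger of the endoplasmic reticulum that is abundant in macrophages, held 10 footprints, 5 higher and 5 lower. Their sum was 5.30 in KO and 4.67 in WT (log2 0.18), while its strongest footprint, in all 6 libraries, was lower in KO at 2.25 against 2.73. Slc2a1, the glucose transporter GLUT1, had 4 footprints with a sum of 4.12 in KO and 6.33 in WT (log2 -0.62). Of these, 3 were lower in KO, from 0.593 in KO and 2.68 in WT at the second to 2.14 and 2.27 at the fourth, and each of the 3 was in 1 KO and 2 WT libraries.

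Carriers of amino acids, peptides and related solutes formed the largest group, with 63 footprints on 11 genes. KO was higher at 30 and lower at 33 (median log2 ratio -0.16), and 7 genes were higher and 4 lower by their sums. It also held 10 of the 18 footprints found in all 6 libraries. Slc43a2, which carries large neutral amino acids, had 19 footprints in a 3′ UTR of 5102 nt, with KO occupancy from 0.0408 to 0.721 (median 0.219) and WT occupancy from 0.0428 to 1.071 (median 0.171). KO was higher at 11, of which 8 by at least 2-fold, and lower at 8, of which 3 by at least 2-fold. The gene sum was 5.46 in KO and 3.95 in WT (log2 ratio 0.47). The highest single footprint, at chr11:75388052-75388114, went the other way, with 0.721 in KO and 1.07 in WT (log2 -0.57).

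Direction within Slc43a2 went with the number of KO libraries, a count that comes from the same libraries as the occupancy. Among its 11 footprints in at least 2 KO libraries 10 were higher in KO, and among the 8 in fewer 7 were lower. The second footprint, at chr11:75386361-75386426 with a G+C content of 65.2%, had 0.525 in KO and 0.0828 in WT (log2 2.64) in 3 KO and 2 WT libraries, and it held a miR-142-3p match. The last, near the end of the 3′ UTR, had 0.529 in KO and 0.113 in WT in 3 and 2 libraries. The one found in all 6 libraries, 53 nt after the stop codon, had 0.372 in KO and 0.265 in WT.

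The system A transporters Slc38a1 and Slc38a2, which take up glutamine and other neutral amino acids with sodium, lay on opposite sides. Slc38a1 had a sum of 13.79 in KO and 10.35 in WT (log2 0.41), with 4 of 7 footprints higher. Slc38a2 had 3.79 in KO and 6.98 in WT (log2 -0.88), with 7 of 8 footprints lower. Of those 7, 3 were held by at least 2 KO libraries. They were the third with 2.70 in KO and 3.64 in WT, the fifth with 0.267 and 0.398, and the eighth with 0.496 and 1.59. The second was listed at 0 in KO and 0.439 in WT. Slc38a7, a glutamine transporter of the lysosome, had 3 footprints with 0.681 in KO and 0.253 in WT, 0 and 1.34, and 0.872 and 0.0866, and its sums of 1.55 and 1.68 joined footprints of both directions. Slc38a10 had 1 footprint with 2.08 in KO and 1.41 in WT, in 2 libraries of each genotype.

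Slc7a8, the LAT2 exchanger of neutral amino acids, had 7 footprints and nearly equal sums of 16.52 in KO and 15.78 in WT (log2 0.07). Its 2 footprints in all 6 libraries were both lower in KO, while the fifth, at chr14:55341967-55342047, had 4.04 in KO and 0.481 in WT (log2 3.06) in 2 KO libraries and no WT library. Over its 3 footprints in at least 2 libraries of each genotype the log2 ratio was -0.34. Slc6a6, the taurine transporter, had all 8 footprints in 2 or more libraries of each genotype, and 4 were in all 6. Its sums were equal to 2 decimals, 1.57 in both genotypes, with KO values from 0.0716 to 0.387 and WT values from 0.0916 to 0.501. The sixth was the one with a 2-fold difference, at 0.231 in KO and 0.0935 in WT. The eighth, with the miR-27 site, had 0.266 in KO and 0.297 in WT.

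Among the other amino acid carriers, Slc36a1, a proton-coupled transporter of the lysosome and plasma membrane, had sums of 1.68 in KO and 1.08 in WT (log2 0.63). Most of that lay in 1 footprint with 1.01 in KO and 0.355 in WT, in 3 and 2 libraries. The creatine transporter Slc6a8 had 1.19 in KO and 1.56 in WT (log2 -0.39), with 1 of 3 footprints higher. Slc15a3, a lysosomal carrier of histidine and small peptides, had 2.58 in KO and 1.48 in WT at its footprint in all 6 libraries, the one with the highest G+C content of the 182 (66.7%), and 0.171 in KO and 0.933 in WT at the second, in no KO library. Its relative Slc15a4 was lower at both footprints, with sums of 0.344 in KO and 0.571 in WT.

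The families grouped as monocarboxylate and organic anion carriers had 16 footprints on Slc16a10 and Slco4a1, 8 higher and 8 lower. Slc16a10 had 13, with sums of 20.58 in KO and 16.71 in WT (log2 0.30), 8 of them higher. Slco4a1, an organic anion transporter that also accepts thyroid hormones, had 3 footprints in a 3′ UTR of 626 nt, and all 3 were at least 2-fold lower in KO. They had 0.0720 in KO and 0.191 in WT (2 and 3 libraries), 0.0219 and 0.139 (0 and 2 libraries), and 0.131 and 0.358 (all 6 libraries). The sum was 0.225 in KO and 0.688 in WT (log2 ratio -1.61). These occupancies were low, and with a pseudocount of 1 the log2 ratio was -0.46. The second footprint held the miR-27 site.

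Inorganic ion and pH carriers had 20 footprints on 8 genes, 11 higher and 9 lower in KO (median log2 ratio 0.43), and 6 of the 8 genes were higher by their sums. Slc4a7, a sodium-bicarbonate cotransporter, had 6 footprints that were alike in strength (KO 1.31 to 3.35, WT 1.01 to 2.49), with sums of 12.81 and 9.79 (log2 0.39). The difference lay in 2 of them. The fourth, with the miR-15/16 site, had 3.35 in KO and 1.01 in WT (3 and 1 libraries), and the fifth, with the miR-30 site, had 3.11 and 1.64 (2 libraries each). The remaining 4 had log2 ratios from -0.42 to -0.03. Slc20a1 summed to 9.81 in KO and 7.39 in WT (log2 0.41).

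Mitochondrial carriers of the Slc25 family went one way at the level of genes. All 6 had lower sums in KO (47.8% of all genes were higher), and of their 15 footprints 12 were lower and 3 higher (all footprints 48.7% higher), with 9 at least 2-fold lower (all footprints 24.2%). The median log2 ratio was -1.43 over the 15, of which 4 were listed at 0 in KO, and -0.85 over the other 11. Slc25a24, which exchanges ATP-magnesium for phosphate, had a sum of 2.62 in KO and 4.16 in WT (log2 -0.67), and 4 of its 5 footprints were lower. Its strongest, in 2 KO and 3 WT libraries, had 1.13 in KO and 1.81 in WT. The fifth was higher, at 0.597 in KO and 0.219 in WT. Slc25a46 had sums of 11.88 in KO and 12.24 in WT (log2 -0.04), which was 0.10 once its 2 footprints listed at 0 in KO were left out, so that 4 of 5 genes were then lower. Slc25a3, the mitochondrial phosphate carrier, had 0.00878 in KO and 0.0429 in WT, and Slc25a11, the oxoglutarate carrier, had 0.355 and 0.856. The iron importer Slc25a37 had sums of 0.678 and 1.19, and Slc25a36, which carries pyrimidine nucleotides, was listed at 0 in KO at both footprints, with 0.604 and 0.531 in WT.

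The mitochondrial group stood low in library support and in G+C content as well. Of its 15 footprints 10 were held by no KO library, against 24.7% of the 182 and a background of 27.9%, and the median G+C content was 38.8%. Their part in the lower values was not tested. Nucleotide sugar carriers of the Slc35 family had 6 footprints on 4 genes, of which 5 were lower in KO and 0 were in at least 2 KO libraries, with a median G+C content of 44.95%. Slc35a5 had sums of 0.975 in KO and 1.64 in WT (log2 -0.75), and neither of its 2 footprints was in a KO library.

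Metal carriers had 10 footprints on 6 genes, 3 of them higher and 3 lower by their sums. Slc31a1, the high-affinity copper importer, was lower at all 4 of its footprints, with sums of 1.201 in KO and 2.218 in WT (log2 -0.88) and no footprint in more than 1 KO library. By gene sums, the highest ratios among all solute carriers were those of Slc41a2, Slc30a9 and Slc11a1. Slc41a2, a magnesium transporter, had 1.72 in KO and 0.198 in WT (log2 3.11). Slc30a9, of the zinc transporter family, had 1.43 and 0.295 (2.28). Slc11a1, the phagosomal iron and manganese transporter NRAMP1, had 0.370 and 0.0876 (2.06). Each of these 3 genes had a single footprint in 2 KO libraries and 1 WT library. The carriers of nucleosides, vitamins and cofactors were Slc23a2, the nucleoside transporter Slc29a3 (0.267 in KO, 0.228 in WT) and the haem transporter Slc48a1 (0.0837 and 0.0544), all 3 higher by their sums.

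Across the 182 footprints the ratio moved with the number of KO libraries, which is drawn from the same libraries. The median log2 ratio was -1.46 for the 45 footprints in no KO library, -0.47 for 52 in 1, 0.66 for 56 in 2 and 0.49 for 29 in all 3. Of the 45, 38 were lower in KO (background 83.9%). Over all footprints these medians were -1.32, -0.04, 0.55 and 0.53. WT support was wider, with 166 footprints (91.2%, background 94.9%) in at least 2 WT libraries and 85 (46.7%, background 40.1%) in at least 2 KO libraries. A KO value above 0 was given for 36 of the 45 footprints in no KO library, and the sources used here do not say how it was obtained.

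**Figure D4:**
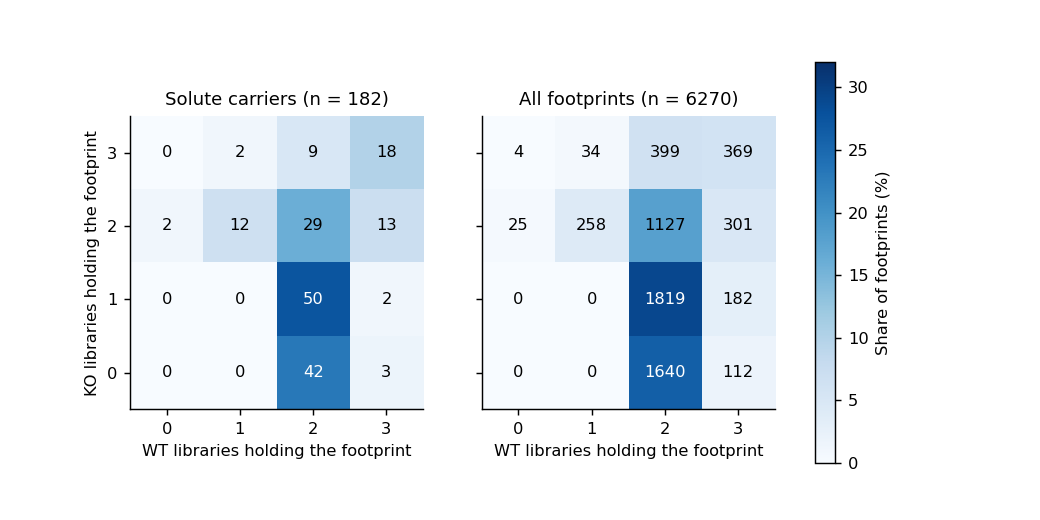
Number of footprints by how many of the 3 KO libraries (y) and 3 WT libraries (x) held them, for the 182 solute carrier footprints (left) and all 6270 (right), with the shade giving the share of footprints in percent. The fullest cells in both panels are 1 KO with 2 WT libraries (50 solute carrier footprints) and no KO with 2 WT libraries (42), and 18 stand in the corner of all 6.

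The ratio also moved with base composition. The 182 were split into 3 classes by G+C content, and in the lowest class (23.5 to 41.6%, n = 61) 15 footprints were higher and 46 lower in KO, with a median log2 ratio of -0.75. The middle class (n = 62) had 28 and 34 and a median of -0.16. The highest class (50.6 to 66.7%, n = 59) had 36 and 23 and a median of 0.47. Over all footprints cut at about the same G+C content the medians were -0.44, 0.16 and 0.49. The share in at least 2 KO libraries moved too, from 32.8% through 40.3% to 67.8% (all footprints 29.7%, 43.3% and 55.7%). Spearman's rho of G+C content with the ratio was 0.358 over the 182 footprints (all 0.325), which share libraries and, within genes, a transcript. It was -0.03 within Slc5a3 and 0.14 within Slc43a2, and 0.79 within the 8 footprints of Slc38a2 and 0.86 within the 7 of Slc7a8. The part of base composition in the values above was not tested.

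**Figure D5:**
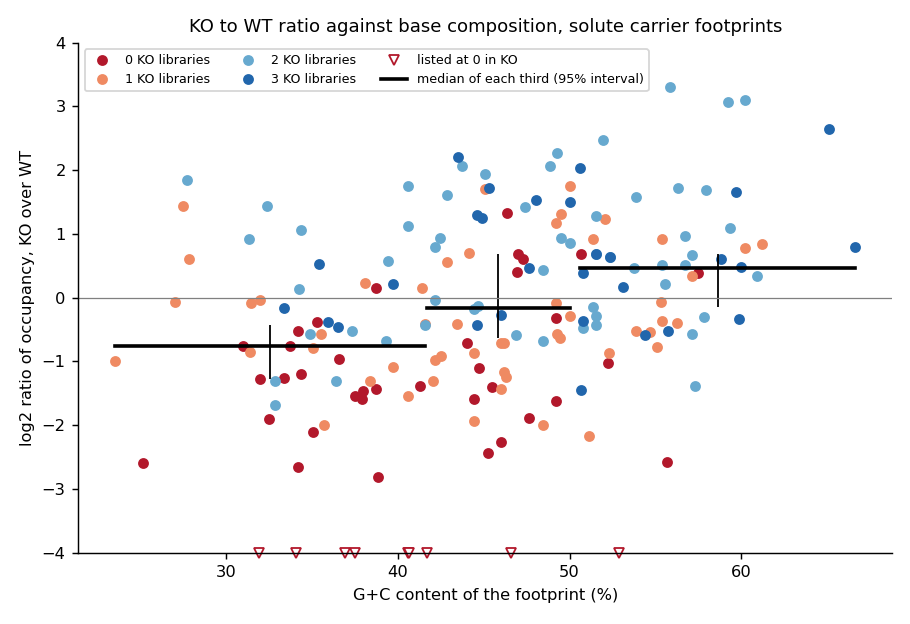
G+C content (percent, x) against the log2 ratio of KO over WT (y) for the solute carrier footprints, coloured by the number of KO libraries that held them; black bars give the median of each of 3 G+C classes with the 95% interval of that median over footprints, not over animals, and open triangles mark 9 footprints listed at 0 in KO. The medians are -0.75, -0.16 and 0.47, and footprints in no KO library (dark red) lie mostly below 0.

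Footprints with a seed match of the 23 families were higher in KO in 13 cases and lower in 23, with a median log2 ratio of -0.40. Those without were higher in 66 and lower in 80, with a median of -0.21. Of the 6 footprints with a miR-27 match 5 were lower in KO, on Slc5a3, Slc6a6, Slc25a24, Slc25a46 and Slco4a1, and 1 higher, on Slc38a7. Of the 5 lower ones, 4 were in no KO library, and the one in all 6 libraries, on Slc6a6, differed by -0.16 on the log2 scale. The 4 footprints with a miR-146 match were split, with Slc23a2 (log2 0.69) and 1 of Slc5a3 (0.71) higher and the other of Slc5a3 (-1.10) and that of Slc6a6 (-0.18) lower. A seed match was held by 3 of the 18 footprints in all 6 libraries, against a background of 19.8%.

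Transporter genes outside the solute carriers, such as ABC transporters and P-type and V-type ATPases, held 97 footprints on 29 genes. KO was higher at 46 and lower at 51, with a median log2 ratio of -0.08, and the genes split into 15 higher and 14 lower. Footprints were also looked up on listed genes that act on solute carriers. They were found on 1 of 3 genes of the tonicity response and 1 of 8 of the amino acid response. Of 6 genes of transporter regulation, 2 held one. Over all genes 2223 held a footprint, beside 22238 annotated protein-coding symbols, and no difference was tested. Nfat5, the transcription factor of the tonicity response that drives Slc5a3 and Slc6a6, had 1 footprint with 1.84 in KO and 0.577 in WT, in 2 libraries of each genotype. Atf4, which drives amino acid transporter genes under amino acid shortage, had 1 footprint listed at 0 in KO and 0.584 in WT. Of the 18 listed genes of lysosomal nutrient sensing 8 had footprints, 2 higher and 6 lower in KO (47.8% of all genes were higher). Of the 6 lower, Rraga and Rheb each had 1 footprint, in no KO library. No footprint of Mtor or Mitf was in more than 1 KO library, while Rragc and Fnip1 reached 2. Fnip2 with 10 footprints had nearly equal sums of 10.23 in KO and 9.76 in WT. Wnk1, a kinase that controls chloride cotransporters, had 3.59 and 2.92, and its downstream kinase Oxsr1 had 0.616 and 1.51 at 1 footprint in no KO library.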

How the data were processed

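Ago HITS-CLIP libraries of 3 WT and 3 KO cultures were grouped by their titles. The authors, per the series design text, separated mRNA from miRNA reads by length, aligned both to mm9, built clusters of overlapping mRNA reads, cut a footprint around the peak of each and kept those seen in 2 or more libraries of 1 genotype. The submitters' processing notes name Bowtie 0.12.8 and bedtools. The deposited occupancy is the authors' ratio of footprint signal to RNA-Seq transcript expression. The sources used here do not give how libraries were combined and scaled, and without read counts the depth is unknown.

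Footprints were placed on NCBIM37 (mm9) with GENCODE vM1, with coordinates counted from 1, using Python 3.11.15, pandas 2.3.3 and pysam 0.24.0. Log2 ratios were taken after adding 0.00161 (pseudocount, 50% of the smallest nonzero value), which understates differences of low values. A 2-fold rule replaced a test. Gene values are sums over footprints. The scripts were tested on simulated data. Members and lists were chosen with earlier results of these data known. Genes were named by rule: 3 or more footprints, the 5 strongest footprints, the 5 highest and 5 lowest ratios among genes above 0 in both genotypes with summed occupancy at or above the median, a footprint in all 6 libraries, and Slc5a3, Slc43a2, Slc6a6 and Slco4a1. Other genes named were chosen after their values were seen. A few genes are counted but not reported here by name. Alternatives were the pseudocount, filters on occupancy and on libraries, centring, the strongest footprint per gene and the length of the seed match.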

Additional observations from a re-analysis of the deposited data

How the results depend on the processing

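No paired analysis was possible because the table gives 1 combined value per genotype, and for the same reason no library could be left out. Restricting to footprints in at least 2 libraries of both genotypes turned the median log2 ratio from -0.28 to 0.43 and left 17 footprints at least 2-fold higher and 5 lower, against 36 and 47 in the report, with 3 genes higher and 1 lower, against 5 and 5. A pseudocount of 1 left 4 footprints higher and 3 lower and 1 gene each way. Keeping footprints whose mean occupancy reached the table's median gave 17 higher and 20 lower, with 3 genes higher. Footprints in all 3 libraries of 1 genotype gave 9 and 8. Taking the strongest footprint of each gene gave 8 genes at least 2-fold lower, and leaving out footprints listed at 0 in KO gave 3. Fewer footprints or genes entered under these filters. Leaving out Slc5a3, chosen after seeing the data, gave a median of -0.15 with 32 higher and 36 lower. A seed match of 6 nt was in 48.9% of the footprints (all 47.4%), one of 8 nt in 7.14% (all 7.29%) and one within the central 46 nt in 12.1% (all 12.2%). Counting 1 KO library as support gave 137 footprints in place of 85. The direction held under every setting that left the gene a footprint in 16 of the 24 genes named by rule and in 35 of all 44. Exceptions among the named genes included Slc5a3, Slc6a6, Slc7a8, Slc25a46, Slc37a2, Slc38a7 and Slc43a2. Several genes counted as held had no footprint left under a filter, such as Slc2a1 and Slc31a1 at 2 libraries of both genotypes. A change of pseudocount cannot turn a direction, and the strongest footprint of a gene with 1 footprint is its only one.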
